A study of Mus musculus with 16 samples.

Results

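The enzymes that cross-link collagen were followed in the bone under the knee cartilage of mice: the lysyl oxidase Lox, its 4 relatives Loxl1, Loxl2, Loxl3 and Loxl4, and the 3 lysyl hydroxylases Plod1, Plod2 and Plod3. The members were all 15 array probes whose gene name in the scanner files is one of these 8 genes, of 56605 probes in all. Every one of the 15 passed the filter on dim probes, and the 8 genes were among 28250 genes or transcripts tested. Where a gene had several probes, the one with the highest mean gave its value, and the others are given beside it.

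Collagen fibrils gain their tensile strength from covalent bonds between neighbouring molecules. Inside the cell, lysyl hydroxylases add a hydroxyl group to chosen lysines of the procollagen chain. Outside it, lysyl oxidases turn lysines and hydroxylysines of the telopeptides into reactive aldehydes, which then condense into cross-links. In bone the hydroxylysine route prevails, and osteoblasts are the main cells that make and modify type I collagen. Lysyl oxidases also cross-link elastin.

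The samples were 16 RNA extracts of subchondral bone from the medial tibia of male wild-type C57BL6 mice, each from 1 joint of a different mouse. Mice were 10 to 12 weeks old at surgery on both knees. DMM, destabilization of the medial meniscus, cut the ligament that ties the medial meniscus to the tibia and is a model of post-traumatic osteoarthritis. In sham mice the same ligament was exposed and left whole. Tissue was collected 1 or 6 weeks after surgery. The 4 groups of 4 arrays are sham 1 week, DMM 1 week, sham 6 weeks and DMM 6 weeks. All animals had joint surgery, so no array shows an unoperated joint, and time after surgery and age cannot be told apart. Each array is a different mouse, so p-values measure the spread between mice. The main fit has no term for the slide, so this spread also holds any difference between slides. Bone was decalcified in EDTA, cut into 10 µm sections, laser microdissected and pooled per joint before 100 ng of RNA was labelled.

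Replicates 1 and 2 of every group were on slide 1 and replicates 3 and 4 on slide 2, which were also scanned separately. The 75th percentile of the intensity, by which each array was scaled, ranged from 329 to 873. Between 65.3% and 79.6% of the probes on an array were well above background. The dimmest array, replicate 2 of sham 6 weeks, at 329 against 471 for the next, also stood apart from the other 15. Its median correlation with them was 0.917, against 0.963 or more for every other array. Direction counts and calls of the enzymes that change without it are given both ways. All 6 osteoblast markers (among them Bglap, Alpl and Sp7), all 5 osteocyte markers and all 6 osteoclast markers were well above background on all 16 arrays. So were the 5 erythroid, 6 neutrophil and 5 B cell markers. In such bulk RNA, fewer cells of a type and less RNA per cell cannot be told apart.

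The readout of each enzyme is a 60-base probe. Of the probes that stand for genes, those of Loxl1 (chr9:58138570-58138629, minus strand), Loxl2 (chr14:70090017-70090076, plus strand) and Loxl3 (chr6:83000426-83000598, plus strand; all mm9) hold at least 1 reading frame without a stop, as do those of Loxl4, Plod1 and Plod3, which are not printed. A frame without a stop does not by itself place a probe in coding sequence, and coding positions were not at hand. The Loxl3 probe covers 173 bases of genome and so crosses an exon junction, which unspliced RNA would not match in full. Second probes of Loxl4 (chr19:42669867-42672019, minus strand) and Plod3 (chr5:137466696-137466864, plus strand) span 2153 and 169 bases and also cross a junction. These 5 mark what the array bound for Loxl2, whose probe that stands for the gene moved least with time, and for the single-probe genes. They also mark it for the second probes that check Loxl4 and Plod3.
Loxl1: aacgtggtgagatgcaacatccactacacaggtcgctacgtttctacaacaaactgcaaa
Loxl2: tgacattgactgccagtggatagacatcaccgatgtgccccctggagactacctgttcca
Loxl3: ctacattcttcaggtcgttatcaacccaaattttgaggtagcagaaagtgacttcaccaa
Loxl4: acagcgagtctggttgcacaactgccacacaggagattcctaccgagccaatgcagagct
Plod3: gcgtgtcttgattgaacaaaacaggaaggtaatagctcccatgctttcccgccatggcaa

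Of the 15 probes, 14 were well above background on all 16 arrays, and the second Plod1 probe on 15. Their scanner intensities, before scaling, ran from 1005 to 12070 for Lox and from 188.8 to 3287 for Loxl1. The probe of Loxl2 ran from 344.7 to 1189, that of Loxl3 from 37.7 to 422.3 and that of Loxl4 from 101.4 to 661.3. For the hydroxylases the ranges were 116.3 to 972.8 for Plod1, 424 to 3826 for Plod2 and 602.5 to 4759 for Plod3. Probes differ in how well they bind, so these ranges do not rank the enzymes.

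Below, a level is the log2 of a probe's intensity over the 75th percentile of its array, and a difference is one between group means of such levels. Differences are given ± the standard error of the limma fit, and group levels ± SD with n = 4 arrays. Each p-value is that of limma's moderated test on all 16 arrays, and adjusted p-values are Benjamini-Hochberg over all 28250 genes. An adjusted p under 0.05 counts as passing.

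Averaged over both surgeries, all 8 enzymes had a lower mean at 6 weeks than at 1 week, with a median difference of -0.79 against 0.04 over all genes. The differences ran from -1.08 ± 0.32 for Plod2 (a 2.12-fold lower level) to -0.15 ± 0.17 for Loxl2. None of the 8 passed limma's adjusted threshold, which 0.874% of genes (247) did and 0.234% did as lower at 6 weeks. Plod1 came nearest, at an adjusted p of 0.0515. At an unadjusted p under 0.05 there were 7 of the 8, all lower, against 15.8% of genes in either direction and 8.18% lower. Lower means at 6 weeks were found for 44.4% of all genes.

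**Figure D1:**
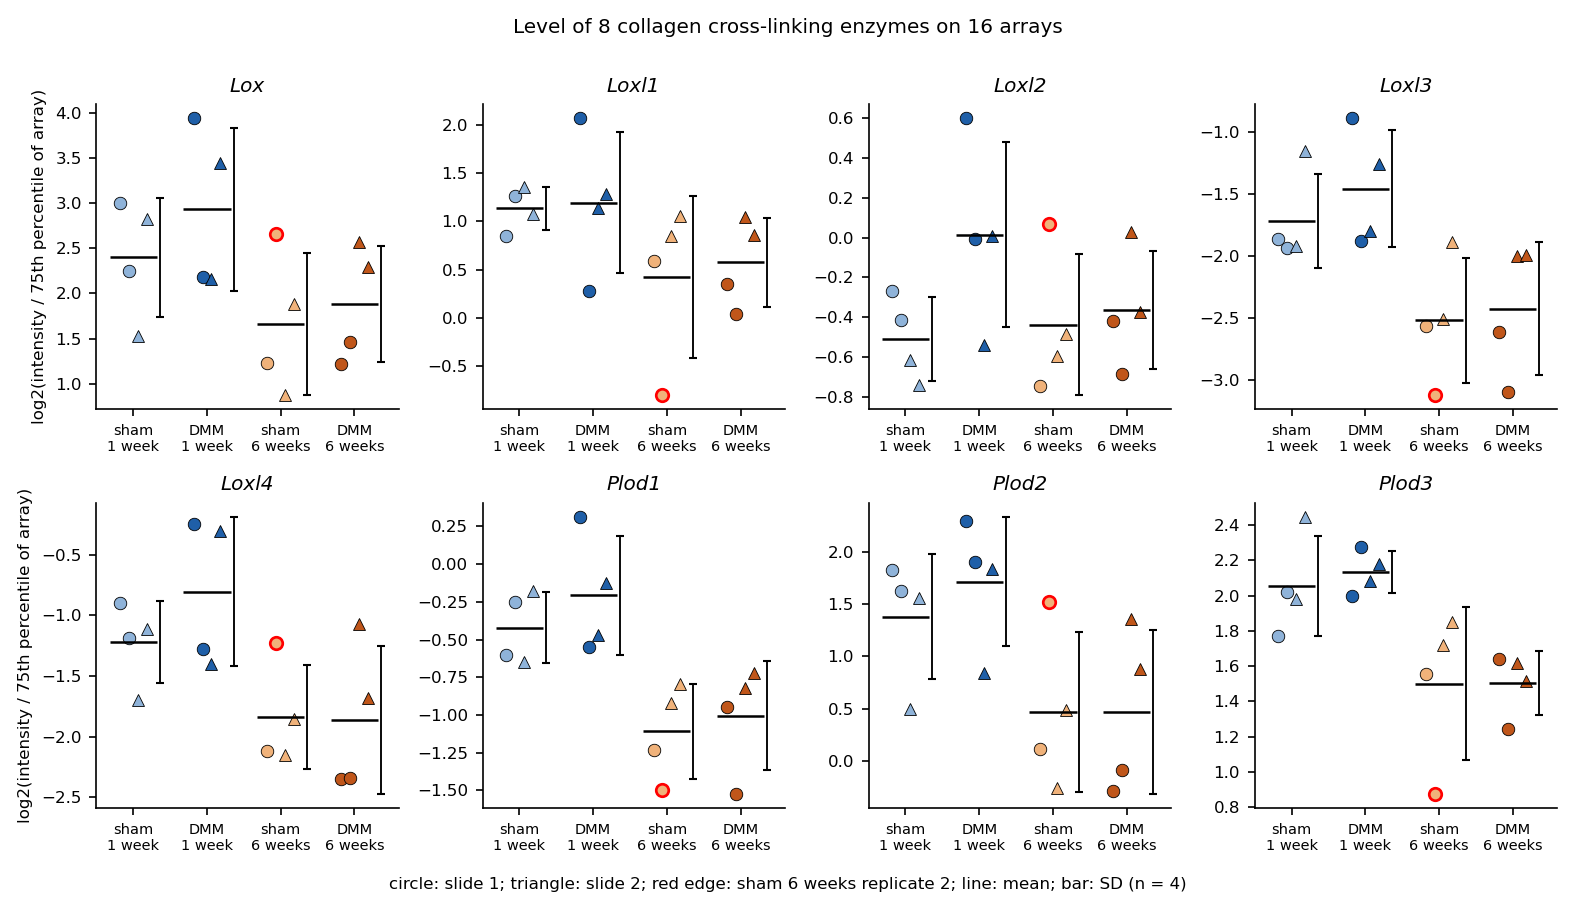
Level of each enzyme (log2 of intensity over the 75th percentile of the array) on 16 arrays by group; circles are slide 1, triangles slide 2, lines are means and bars SD of 4 arrays. For Plod1 the arrays of 6 weeks, with a highest level of -0.72, lie below those of 1 week, with a lowest of -0.65; sham 6 weeks replicate 2 (red edge) is the highest of its group for Lox, Loxl2, Loxl4 and Plod2 and the lowest for the other 4.

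Lysyl oxidases come first. Lox, the founding enzyme that oxidises both collagen and elastin, had levels of 3.00, 2.25, 1.53 and 2.83 in replicates 1 to 4 of sham 1 week and 3.95, 2.18, 2.16 and 3.44 in DMM 1 week. At 6 weeks they were 1.23, 2.66, 0.87 and 1.88 after sham and 1.22, 1.46, 2.57 and 2.29 after DMM. The groups of both times overlap, and Lox had the widest spread of the family. Its SD within groups was 0.76, at the 86.3th percentile of all genes. The averaged difference was -0.89 ± 0.35 (95% interval -1.64 to -0.15, adjusted p = 0.216). All 8 arrays of 6 weeks lay below the mean of the 8 of 1 week. The second Lox probe had levels of -0.24 ± 0.70 in sham 1 week and 0.27 ± 0.97 in DMM 1 week. At 6 weeks it had -0.93 ± 0.68 after sham and -0.80 ± 0.85 after DMM.

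Loxl1, the oxidase best known for elastic fibre upkeep, read 0.85, 1.26, 1.35 and 1.07 in sham 1 week and 2.07, 0.28, 1.14 and 1.29 in DMM 1 week. Sham 6 weeks gave 0.59, -0.80, 0.84 and 1.06, and DMM 6 weeks 0.35, 0.04, 1.05 and 0.86. The single low value of sham 6 weeks belongs to replicate 2, and of the other 3 only replicate 4 lies within the range of sham 1 week. With all arrays the averaged difference was -0.67 ± 0.29 (adjusted p = 0.267), and without that replicate it was -0.46 ± 0.23 (adjusted p = 0.253).

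For Loxl2, which acts on the collagens of basement membranes and of fibrous matrix, sham 1 week gave -0.27, -0.41, -0.61 and -0.74 and DMM 1 week 0.60, -0.01, -0.54 and 0.01. At 6 weeks after sham the levels were -0.75, 0.07, -0.59 and -0.48, and after DMM -0.42, -0.69, 0.03 and -0.37. All 4 groups overlap, and the range over the 16 arrays was the narrowest of the 8 genes, at 1.35. The averaged difference with time was -0.15, with a 95% interval from -0.53 to 0.22. It was -0.43 within slide 1 and 0.12 within slide 2, so its direction was not shared by the slides. The second Loxl2 probe gave -0.56 ± 0.35.

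In sham 1 week Loxl3, an oxidase needed for cartilage and palate formation, read -1.87, -1.94, -1.92 and -1.16, and in DMM 1 week -0.89, -1.89, -1.81 and -1.26. The 6-week levels were -2.56, -3.13, -2.51 and -1.89 after sham and -2.61, -3.10, -2.0 and -2.0 after DMM. After DMM the arrays of the 2 times did not overlap; after sham, replicate 4 of 6 weeks lay within the range of 1 week. The averaged difference was -0.88 ± 0.23 (1.85-fold lower, adjusted p = 0.0729).

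Loxl4, a further member with scavenger-receptor domains before its catalytic part, gave -0.90, -1.19, -1.70 and -1.11 in sham 1 week and -0.24, -1.28, -1.40 and -0.30 in DMM 1 week. Levels at 6 weeks were -2.12, -1.22, -2.15 and -1.85 after sham and -2.35, -2.34, -1.08 and -1.68 after DMM. Replicate 2 of sham 6 weeks and replicate 3 of DMM 6 weeks lay among the arrays of 1 week, and the rest lay near or below the lowest of them. The averaged difference was -0.83 ± 0.24 (adjusted p = 0.101), and the other 2 Loxl4 probes gave -0.63 ± 0.32 and -0.75 ± 0.28.

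The hydroxylases followed the same direction. Plod1, which hydroxylates lysines of the collagen helix, had levels of -0.60, -0.25, -0.65 and -0.18 in sham 1 week and 0.31, -0.55, -0.47 and -0.13 in DMM 1 week. At 6 weeks they were -1.23, -1.50, -0.92 and -0.79 after sham and -0.95, -1.53, -0.82 and -0.72 after DMM. Every array of 6 weeks lay below every array of 1 week, a separation of 8 against 8 seen in 0.658% of all genes in either direction and in 0.287% as lower at 6 weeks. The averaged difference was -0.74 ± 0.17, a 1.67-fold lower level (95% interval -1.10 to -0.38). Its second probe, well above background on 15 arrays, gave -0.46 ± 0.20.

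Plod2, the hydroxylase of the telopeptide lysines that sets the hydroxylysine route of cross-linking, read 1.83, 1.63, 0.50 and 1.56 in sham 1 week and 2.29, 1.90, 0.84 and 1.83 in DMM 1 week. The 6-week arrays read 0.11, 1.52, -0.26 and 0.48 after sham and -0.28, -0.09, 1.36 and 0.88 after DMM. Arrays of both times overlap, through replicate 2 of sham 6 weeks and replicates 3 and 4 of DMM 6 weeks, and the lowest arrays of 1 week were replicate 3 of both groups. The averaged difference of -1.08 ± 0.32 had an adjusted p of 0.105. The second Plod2 probe gave -0.70 ± 0.28.

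Plod3, which hydroxylates lysines and also adds glucose to the sugar on hydroxylysine, was the steadiest enzyme, with a within-group SD of 0.28 at the 22.8th percentile of all genes. It read 1.77, 2.02, 1.98 and 2.45 in sham 1 week and 2.00, 2.27, 2.08 and 2.18 in DMM 1 week. Sham 6 weeks gave 1.56, 0.87, 1.72 and 1.85, and DMM 6 weeks 1.64, 1.24, 1.62 and 1.52. The DMM groups of the 2 times do not overlap, while the sham groups overlap in 1 array each. The averaged difference was -0.59 ± 0.15 (1.51-fold lower, adjusted p = 0.0696), and the second probe, which crosses an exon junction, gave -0.37 ± 0.19.

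Split by surgery, 7 of 8 enzymes had a lower mean at 6 weeks after sham (median -0.70, against 44.8% of genes lower) and 8 of 8 after DMM (median -0.88, against 46.4%). None passed the adjusted threshold in either comparison, nor did any of the 28250 genes (0% in both). At an unadjusted p under 0.05 there were 3 members after sham, all lower, against 7.15% of genes in either direction and 3.72% lower: Plod1 at -0.69 ± 0.24, Plod3 at -0.56 ± 0.21 and Loxl3 at -0.80 ± 0.32. After DMM there were 5, all lower, against 9.7% of genes in either direction and 4.79% lower. These were Plod2 at -1.25 ± 0.46, Loxl4 at -1.06 ± 0.34, Loxl3 at -0.97 ± 0.32, Plod1 at -0.80 ± 0.24 and Plod3 at -0.63 ± 0.21. The groups of 1 and 6 weeks did not overlap for 1 of 8 members after sham (5.33% of all genes, 3.15% as lower) and for 3 of 8 after DMM (5.23%, 2.43% as lower). The enzyme without a lower mean after sham was Loxl2, at 0.07 ± 0.25, and at -0.0985 ± 0.24 without replicate 2 of sham 6 weeks. Its second probe did have a lower mean, at -0.805 in sham 6 weeks against -0.458 in sham 1 week.

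**Figure D2:**
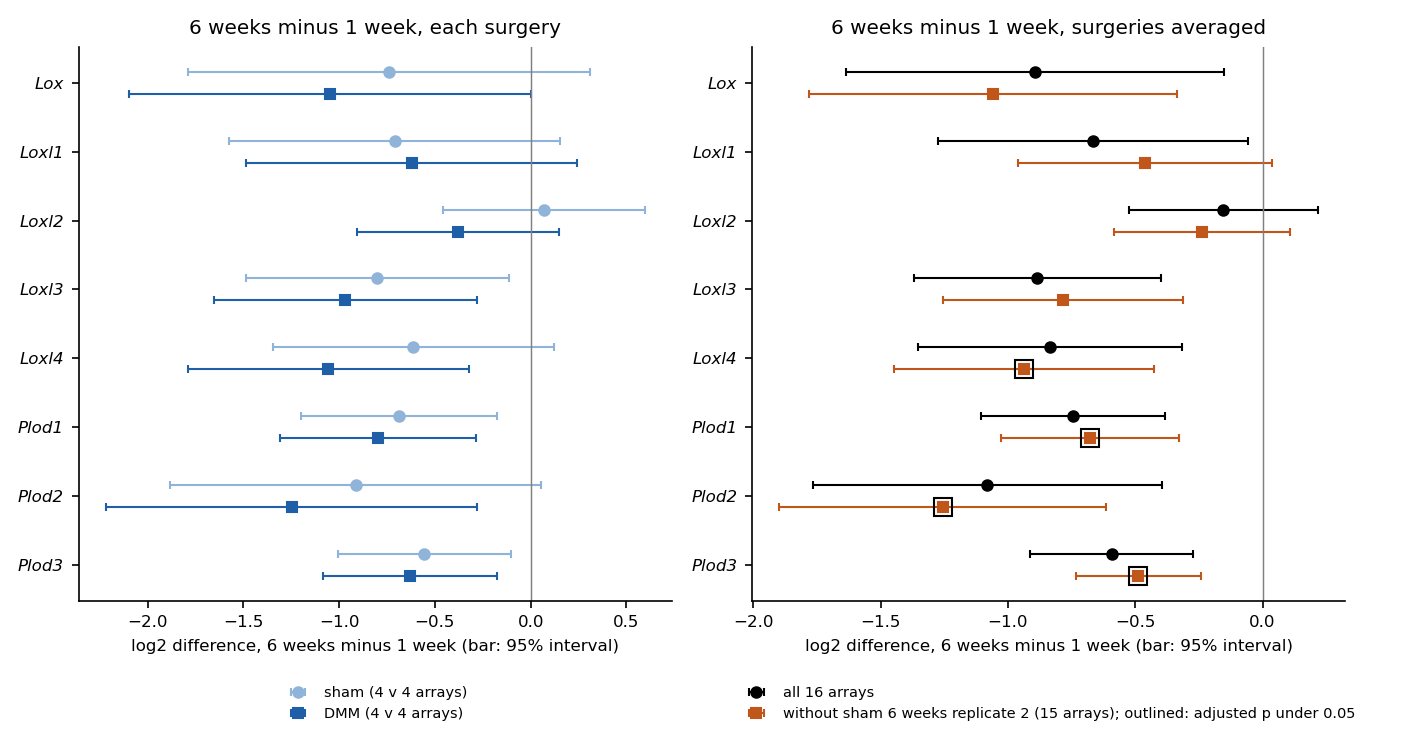
Difference between 6 weeks and 1 week (log2, with 95% intervals) for each enzyme, by surgery on the left and averaged over both on the right, there with all 16 arrays (black) and without replicate 2 of sham 6 weeks (orange). All 8 averaged values are below 0 in both fits; outlined squares mark Loxl4, Plod1, Plod2 and Plod3, which passed the adjusted threshold without that array.

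Whether enzymes passed the threshold turned on single arrays. Without replicate 2 of sham 6 weeks, 4 enzymes were lower at 6 weeks past the threshold: Plod3 at -0.49 ± 0.11 (adjusted p = 0.0325), Plod2 at -1.26 ± 0.30 (0.0340), Plod1 at -0.68 ± 0.16 (0.0347) and Loxl4 at -0.94 ± 0.24 (0.0393). In that fit 1502 genes passed, 5.32% of those tested, and 541 of them were lower. Loxl3 (-0.78, adjusted p = 0.0533) and Lox (-1.06, adjusted p = 0.0796) missed it. The size of the averaged count also rested on other arrays: leaving out any of 12 of the 16 gave 0 to 3 genes in place of 247, while leaving out any of the other 4 gave 311 to 1502. Plod1 alone passed without replicate 3 of DMM 1 week or replicate 3 of DMM 6 weeks, and no member passed when any of the remaining 13 arrays was left out.

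Within each slide, where every group has 2 arrays, the averaged difference was below 0 for 8 of 8 enzymes on slide 1 and for 7 of 8 on slide 2. It was further below 0 on slide 1 for every enzyme, as with Plod2 at -1.60 on slide 1 and -0.56 on slide 2, Plod1 at -1.03 and -0.46, Loxl3 at -1.20 and -0.56, and Plod3 at -0.69 and -0.50. With slide as a block in the fit, Plod1 (adjusted p = 0.0331), Loxl3 (0.0384) and Plod3 (0.0398) passed, and 645 genes in all.

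No enzyme passed a threshold between DMM and sham. At 1 week all 8 enzymes had a higher mean after DMM, with a median difference of 0.30 against 0.00 over all genes, of which 50.8% were higher. The largest were Lox at 0.53 ± 0.49 (95% interval -0.52 to 1.58) and Loxl2 at 0.52 ± 0.25 (-0.003 to 1.05, unadjusted p = 0.0511). Next came Loxl4 at 0.42 ± 0.34, Plod2 at 0.34 ± 0.46, Loxl3 at 0.26 ± 0.32 and Plod1 at 0.21 ± 0.24, then Plod3 at 0.08 ± 0.21 and Loxl1 at 0.06 ± 0.40. Sham and DMM arrays overlapped for all 8, and 1.1% of genes had no overlap. None of the 8 passed limma's adjusted threshold, as none of the 28250 genes did (0%), and none had an unadjusted p under 0.05, against 0.966% of genes. For Lox, Loxl3, Loxl4 and Plod1 the DMM group split, with 2 arrays above the sham mean (replicates 1 and 4) and 2 below it. Leaving out replicate 1 of DMM 1 week took Lox to 0.19, Loxl2 to 0.33, Plod1 to 0.04 and Loxl1 to -0.23.

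At 6 weeks the differences had a median of 0.09 and ran from -0.03 ± 0.34 for Loxl4 to 0.22 ± 0.49 for Lox. Means were higher after DMM for 7 of 8, against 46.5% of genes. Plod2 at 0.00 ± 0.46 and Plod3 at 0.01 ± 0.21 were almost level, Loxl1 was at 0.15 ± 0.40, Plod1 at 0.11 ± 0.24, Loxl3 at 0.10 ± 0.32 and Loxl2 at 0.08 ± 0.25. No member passed in limma (lowest adjusted p 0.9995), 0% of genes did, and no member had an unadjusted p under 0.05, against 0.779% of genes. The 95% intervals reach from -0.45 to 0.46 for Plod3 and from -0.97 to 0.97 for Plod2, so differences of nearly 2-fold in Plod2 in either direction lie within them.

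**Figure D3:**
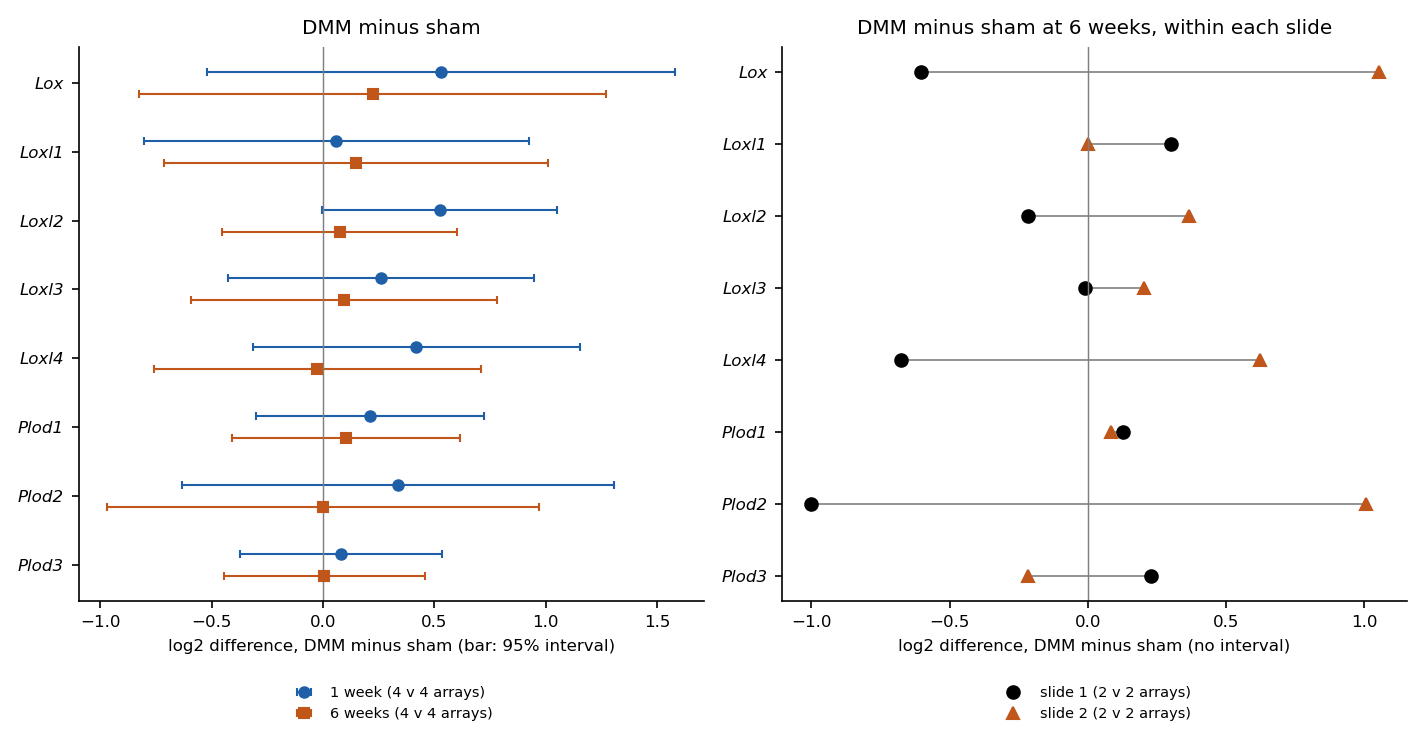
Left, DMM minus sham (log2, with 95% intervals) for each enzyme at 1 week (circles) and 6 weeks (squares); every interval holds 0. Right, the 6-week difference within slide 1 (circles) and slide 2 (triangles), 2 arrays against 2, which goes from -1.003 to 1.01 for Plod2 and has opposite signs for 6 of the 8 enzymes.

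At 6 weeks the slides differed in direction. On slide 1 Plod2 was at -1.003 and on slide 2 at 1.01, Lox went from -0.60 to 1.05 and Loxl4 from -0.68 to 0.62. Loxl2 (-0.22 and 0.37), Loxl3 (-0.01 and 0.20) and Plod3 (0.23 and -0.22) also had opposite signs, while Plod1 was at 0.13 and 0.08 and Loxl1 at 0.30 and 0.00. Slide 1 holds replicate 2 of sham 6 weeks, without which the 6-week difference was 0.56 ± 0.49 for Lox, 0.35 ± 0.44 for Plod2, -0.26 ± 0.34 for Loxl1 and -0.20 ± 0.17 for Plod3, and the mean was higher after DMM for 4 of 8 enzymes. At 1 week the slides shared the direction for 7 of 8 enzymes, with Plod3 at 0.24 and -0.08 the exception.

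The effect of DMM at 6 weeks minus that at 1 week was below 0 for 7 of 8 enzymes, against 51.2% of genes, with a median of -0.24, and for 6 of 8 without replicate 2 of sham 6 weeks. It ran from -0.45 ± 0.35 for Loxl2 and -0.44 ± 0.49 for Loxl4 to 0.09 ± 0.57 for Loxl1. No member passed (0% of genes did, limma), and none had an unadjusted p under 0.05, against 0.683% of genes. Averaged over both times DMM was higher than sham for 8 of 8 enzymes, against 48.2% of genes, with a median of 0.17. Without replicate 2 of sham 6 weeks it was higher for 6 of 8, with Loxl1 at -0.099 and Plod3 at -0.0611. On slide 1 it was higher for 5 of 8, with Lox at -0.0826, Loxl4 at -0.20 and Plod2 at -0.32, and on slide 2 for 7 of 8, with Plod3 at -0.15. Again none passed, with 0% of genes passing in limma, and none had an unadjusted p under 0.05, against 0.938% of genes. Fitted without replicate 2 of sham 6 weeks, Loxl2 was at 0.38 ± 0.16 (limma, unadjusted p = 0.0321, adjusted p = 0.9999). The share of all genes under 0.05 in that fit is not given here.

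Second probes gave the same direction as the first in the averaged comparison of times for all 7 of them. They did not in the comparisons of surgery. Plod1's second probe gave -0.16 ± 0.28 at 1 week and -0.25 ± 0.28 at 6 weeks, where the first gave 0.21 and 0.11. At 6 weeks the second probes of Plod2 (-0.16 ± 0.40) and Plod3 (-0.24 ± 0.27) also lay below 0. The other Loxl4 probes went opposite ways at 6 weeks. The brighter had levels (± SD) of -2.10 ± 0.61 after DMM and -2.22 ± 0.32 after sham. The dimmer had -3.22 ± 0.74 and -2.94 ± 0.65. The second Loxl2 probe, at 0.79 ± 0.49, was above the first at 1 week.

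Between joints, Lox, Loxl4 and Plod2 varied together over the 16 arrays, and so did Loxl3 and Plod1. Of 28 pairs of members, 18 had a Benjamini-Hochberg adjusted permutation p under 0.05 (2-sided, 100000 resamples), for Pearson's r and also for Spearman's rho. The share of all gene pairs that would pass was not computed. The highest r was 0.95 for Loxl3 with Plod1 (rho 0.93, p = 1e-05, the smallest the resamples can give, adjusted p = 7e-05) and for Lox with Loxl4 (rho 0.95), which had the same permutation p. Loxl4 with Plod2 reached 0.93 (rho 0.91) and Lox with Plod2 0.91 (rho 0.88). Without the 2 arrays farthest from the median of the first gene these 4 were 0.92, 0.94, 0.95 and 0.88. At the other end Loxl2 with Plod3 had r = -0.01 and Loxl1 with Loxl2 0.17, neither past the threshold (adjusted permutation p = 0.971 and 0.551).

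Since the times differ in level, they add to such correlations. With each group's mean subtracted, Lox with Loxl4 kept r = 0.94, Lox with Plod2 0.88, Loxl4 with Plod2 0.88 and Loxl3 with Plod1 0.90. Pairs across these sets dropped, to 0.30 for Loxl3 with Plod2 and 0.26 for Plod1 with Plod2, and Plod3 went below 0 with Lox and Plod2 (-0.29 each) and Loxl4 (-0.24). Loxl2 with Plod3 was at -0.40. These values below 0 include replicate 2 of sham 6 weeks, the highest of its group for Lox, Loxl2, Loxl4 and Plod2 and the lowest for Plod3. Centred values without that array were not computed. After centring Loxl2 was at 0.75 with Lox and 0.81 with both Loxl4 and Plod2, and Loxl1 at 0.78 with Loxl3 and 0.81 with Plod1. The median over the 28 pairs was 0.69 for levels and 0.45 after centring. After centring 10 of the 28 pairs had an adjusted permutation p under 0.05, against 18 for levels. Within slides, 27 of 28 pairs were above 0 on both, the exception being Loxl2 with Plod3 (0.26 and -0.33). The distance between the sets rested in large part on 1 array, replicate 2 of sham 6 weeks. Without it, Lox with Loxl4 was at 0.95 and Loxl3 with Plod1 at 0.94, while pairs across the sets were higher: Loxl3 with Loxl4 at 0.88 (0.74 with it), Lox with Plod1 at 0.81 (0.66), Plod1 with Plod2 at 0.81 (0.65) and Loxl3 with Plod2 at 0.82 (0.65). In that fit 24 of the 28 pairs had an adjusted permutation p under 0.05.

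**Figure D4:**
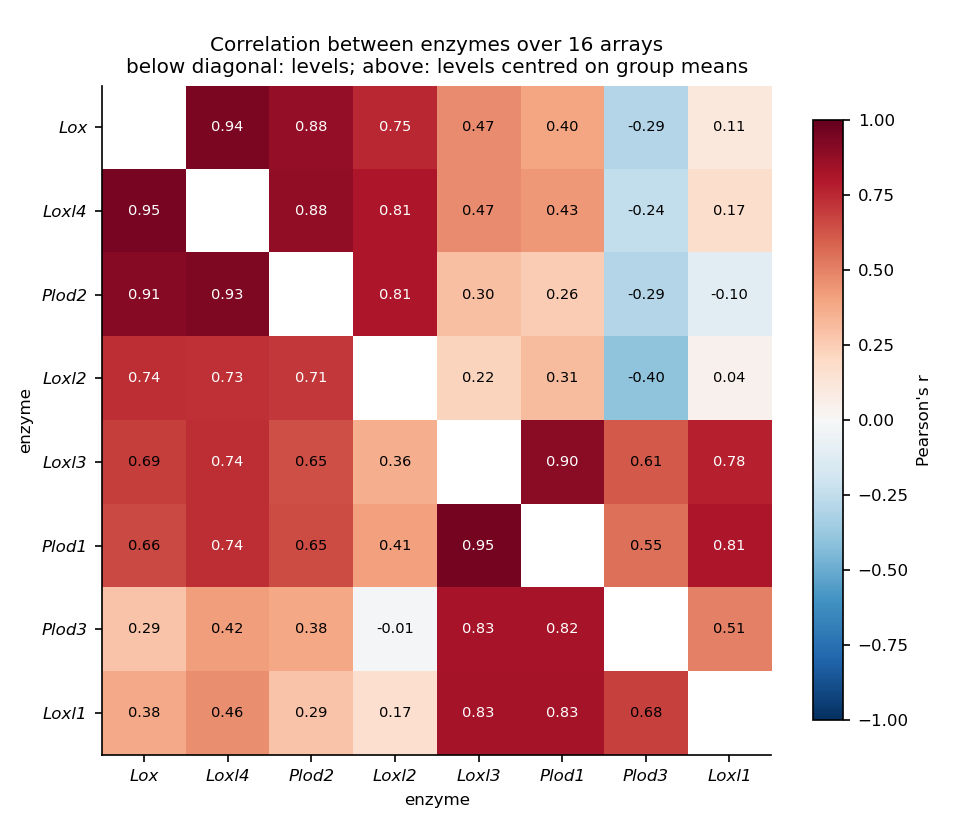
Pearson's r between enzymes over 16 arrays, for levels below the diagonal and for levels centred on group means above it. Lox, Loxl4 and Plod2 hold r from 0.88 to 0.95 on both sides of it and Loxl3 with Plod1 0.95 and 0.90, whereas Plod3 with Lox goes from 0.29 to -0.29.

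Among 19746 other named genes, those whose levels over the 16 arrays were most like Plod2 were Fkbp10 (r = 0.98), Serpinh1 (0.98) and Cdh2 (0.97). The first 2 are collagen-folding factors of the endoplasmic reticulum. Lox was most like Col11a2 (0.98), a minor fibrillar collagen chain, Mamdc2 (0.98) and Tmtc2 (0.97). Loxl4 was most like C1qtnf6 (0.97), Ptgfrn (0.97) and Tmem119 (0.97), a membrane protein of osteoblasts. Among those most like Loxl3 were Kdelr2 (0.96) and Cavin3 (0.95), and Plod1 stood nearest to Cavin3 (0.97), Fermt2 (0.96) and Nek6 (0.96). For Plod3 they were Rnpep (0.97), Rpn2 (0.96) and 0610040J01Rik (0.94), for Loxl1 Get1 (0.96), Apbb2 (0.96) and Fads3 (0.95), and for Loxl2 Gm38462 (0.93), Hrc (0.91) and Haglr (0.90). Ranking over so many genes picks high values, so these r carry no p.

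The enzymes' substrates and helpers had lower means at 6 weeks too, in the averaged comparison, in which 44.4% of all genes were lower, 0.874% passed the threshold and 15.8% had an unadjusted p under 0.05. Of 16 collagen hydroxylation and folding partners, 15 were lower (median -0.54), none past the threshold and 9 at an unadjusted p under 0.05. The 3 with the smallest p were Crtap at -0.76 ± 0.19, part of the prolyl 3-hydroxylase complex, Fkbp10 at -1.06 ± 0.30 and the prolyl 4-hydroxylase subunit P4ha2 at -1.12 ± 0.32. Of 11 procollagen secretion and processing genes 8 were lower (median -0.45), none past the threshold and 7 at an unadjusted p under 0.05, with Pcolce, an enhancer of the C-proteinase, at -0.96 ± 0.24, the export factor Mia3 at -0.45 ± 0.12 and the coat protein Sec24d at -0.74 ± 0.22. Tll2 was on the array and did not pass the filter.

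Among 11 fibrillar collagen chains 10 were lower (median -0.48), none past the threshold and 2 at an unadjusted p under 0.05. Col3a1, the chain of type III collagen, was at -2.34 ± 0.61, Col5a1 at -0.79 ± 0.31 and Col11a2 at -0.79 ± 0.38. Elastic fibre proteins, the other substrate family, were lower for 11 of 12 (median -0.70), with 7 at an unadjusted p under 0.05. One of them passed: the elastin-microfibril glycoprotein Emilin1 fell by 0.72 ± 0.14 (adjusted p = 0.0387), with no overlap between the 8 arrays of each time. Fbln1 was at -0.98 ± 0.28 and Fbln2 at -0.89 ± 0.27. Emilin1 missed the threshold without the filter on dim probes, where no gene passed (adjusted p = 0.0617), on slide 1 alone (0.243) and on slide 2 alone (0.198). It also missed it when any of 12 of the 16 arrays was left out, with adjusted p-values from 0.0189 to 0.0986 over the 16 fits.

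Matrix proteins that modulate cross-linking were mixed, with 5 of 7 lower (median -0.30), none past the threshold and 2 at an unadjusted p under 0.05. These 2 were Fn1, lower at -0.54 ± 0.19, and Tnxb, higher at 0.46 ± 0.20. Tgm2, which makes another kind of cross-link, was at -0.30 ± 0.15. Dpt was on the array and did not pass the filter. Plod2 and Lox are known targets of the hypoxia response, and 12 other hypoxia response genes were set beside them. Of these, 7 were lower and 5 higher (median -0.01), none past the threshold and 3 at an unadjusted p under 0.05, with Slc2a1 at -0.57 ± 0.19, Vegfa at -0.51 ± 0.17 and Pfkfb3 at -0.23 ± 0.11.

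**Figure D5:**
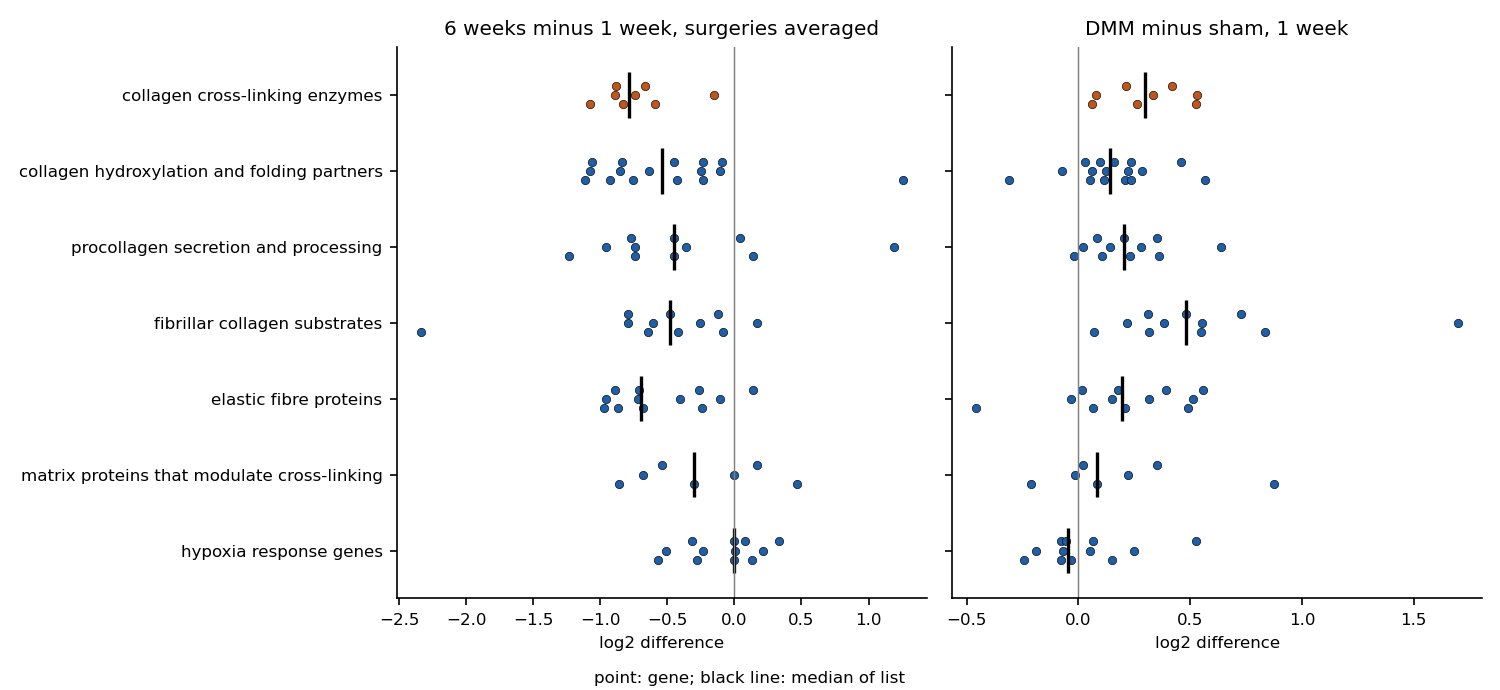
Log2 difference of each gene (points) and median (black lines) for the enzymes and 6 pathway lists, between 6 weeks and 1 week on the left and between DMM and sham at 1 week on the right. The enzymes' medians are -0.79 and 0.30; the fibrillar collagens' are -0.48 and 0.48, and the hypoxia genes' -0.01 and -0.04.

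At 1 week after DMM, fibrillar collagens had a higher mean than after sham for 11 of 11 chains (median 0.48, range 0.07 to 1.70), in a comparison where 50.8% of all genes were higher. Folding partners were higher for 14 of 16 (median 0.14), procollagen processing genes for 10 of 11 (0.20) and elastic fibre proteins for 10 of 12 (0.19), modulators for 5 of 7 (0.09), while hypoxia response genes were higher for 5 of 12 (-0.04). None of these genes passed the threshold or had an unadjusted p under 0.05, which 0.966% of all genes had. At 6 weeks the medians were 0.09, 0.10, -0.06, -0.07, 0.07 and 0.08 in the same order.

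Marker lists of several cell types also leaned lower or higher at 6 weeks. These counts are of the averaged comparison, in which 44.4% of all genes were lower. The osteoblast list was lower at 6 weeks for 5 of 6 genes (median -0.51), and its mean level ran from 3.59 to 3.96 in sham 1 week, 3.57 to 4.69 in DMM 1 week, 3.11 to 3.89 in sham 6 weeks and 3.24 to 4.03 in DMM 6 weeks. Osteoclast markers were lower for 6 of 6 (median -0.85), osteocyte markers for 4 of 5 (-0.20), endothelial markers for 4 of 5 (-0.39), neutrophil markers for 5 of 6 (-0.15), and fibroblast, tendon and synovial markers for 5 of 6 (-0.47). The last list had group medians of -0.98 in sham 1 week, -0.45 in DMM 1 week, -1.42 in sham 6 weeks and -1.64 in DMM 6 weeks, and Col3a1 is in it and among the fibrillar collagens. Higher at 6 weeks were 5 of 5 erythroid markers (median 1.08, 1 past the threshold, which 0.874% of all genes passed). Also higher were 5 of 5 B cell markers (0.42), 5 of 5 megakaryocyte and platelet markers (0.81) and 8 of 9 chondrocyte markers (1.56). The same held for 5 of 5 skeletal muscle markers (0.70), 5 of 5 adipocyte markers (0.72) and 3 of 4 T and NK cell markers (0.27). Of the muscle markers, Ckm was well above background on 5 arrays and Myh4 on 4, and the chondrocyte marker Matn3 was on 10. The muscle list ran from -3.70 to -0.60 in sham 6 weeks and from -3.12 to -1.03 in DMM 6 weeks. The chondrocyte list ran from -0.75 to 1.615 in sham 6 weeks, highest in replicate 2, and from -2.71 to 0.53 in DMM 6 weeks. Of 5 macrophage markers 3 were higher (0.02). The erythroid list ran from 3.63 to 5.36 over the arrays of 1 week and from 4.62 to 5.99 over those of 6 weeks. The part of these cell types in the enzymes' differences was not tested.

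In the comparison of surgeries at 1 week, adipocyte markers were higher after DMM for 5 of 5 (median 1.25) and osteoblast markers for 5 of 6 (0.22), and megakaryocyte markers were lower for 5 of 5 (-0.57). The adipocyte list ran from -0.82 to 0.47 in sham 1 week and from 0.38 to 2.60 in DMM 1 week. Fibroblast, tendon and synovial markers, of which Tnmd and Dpt did not pass the filter, were higher for 5 of 6 (0.11). Their part in the enzymes' higher means after DMM was not tested.

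The stretch before the start of transcription is shown for Plod1, Plod3 and Loxl4, the 3 members for which a promoter sequence was at hand. It is the 250 bases upstream of the RefSeq start on GRCm38.p6. They lie at chr4:147936777-147937026 (minus strand), chr5:136986769-136987018 (plus strand) and chr19:42612807-42613056 (minus strand). Capitals mark 2 motifs on either strand, which share no letters here: ACGTG, a form of the hypoxia-response core, and the GC box GGGCGG. The other form of that core, GCGTG, was not marked or counted. A match is a string of letters, not a shown binding site.
Plod1: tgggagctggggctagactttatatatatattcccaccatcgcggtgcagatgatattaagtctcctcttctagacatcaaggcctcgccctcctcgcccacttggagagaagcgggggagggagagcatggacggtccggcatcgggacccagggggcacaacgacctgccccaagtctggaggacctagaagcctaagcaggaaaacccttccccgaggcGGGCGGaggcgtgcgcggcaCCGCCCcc
Plod3: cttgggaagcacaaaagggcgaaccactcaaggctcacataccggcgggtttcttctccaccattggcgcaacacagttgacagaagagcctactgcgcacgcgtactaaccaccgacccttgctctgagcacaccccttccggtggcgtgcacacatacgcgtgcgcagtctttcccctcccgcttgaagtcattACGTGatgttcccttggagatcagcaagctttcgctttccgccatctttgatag
Loxl4: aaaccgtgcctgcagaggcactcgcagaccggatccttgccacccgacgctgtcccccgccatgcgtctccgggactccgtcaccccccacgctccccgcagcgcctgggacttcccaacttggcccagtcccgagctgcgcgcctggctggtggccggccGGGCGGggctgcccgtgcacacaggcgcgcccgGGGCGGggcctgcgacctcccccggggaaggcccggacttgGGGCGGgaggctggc

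Plod1 held 2 GC boxes and Loxl4 3, and Plod3 held none. Among 32851 promoter windows of this length, 32.7% hold at least 1. Plod3 held the ACGTG form once, found in 16.6% of windows, and Plod1 and Loxl4 did not hold this form. Whether a window holds the core in its other form is not covered by these counts. Their GC content was 61.6%, 55.6% and 76% for Plod1, Plod3 and Loxl4, against a median of 52.4% over all windows.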

How the data were processed

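RNA of 16 joints was measured on Agilent 1-colour arrays with Cyanine 3. Per the file headers, Agilent Feature Extraction 10.7.3.1 made the deposited scanner files, whose processed signal is a background-subtracted intensity per spot, with probe coordinates on mm9. Near-background signals had been replaced by surrogates in 14.3% of spots, and 0 spots were saturated. A value table of 50815 probes that the authors deposited was read as log2 from its range; it was made with limma 3.20.9, per the submitters' processing notes. Its column medians lie between 7.24 and 7.34 and its values correlate with the scanner values of the same array at 0.992 or more. Its centring and normalization are unknown, and it served only as an alternative.

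Control spots and outlier flags were left out, which dropped 342 probes. The log2 intensity minus the log2 of the 75th percentile over all 59305 non-control spots of the array was used. It was tested for the 43268 probes well above background on at least 4 of 16 arrays, whatever their group. The number of arrays limits the precision. With limma 3.58.1 (lmFit, contrasts.fit, eBayes, 12 residual and 3.01 prior degrees of freedom) all 16 arrays entered 1 fit with 4 group means. Correlations between members were tested by permutation in Python 3.11.15 with numpy. R 4.3.3 was used. Fits and correlations were checked on simulated data.

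All 8 members are named. In the averaged comparison of times, up to 3 genes of each pathway list with the smallest unadjusted p are named, as is any that passed, and for each member the 3 genes with the highest Pearson's r, of which 1 is not reported here. The members and lists were chosen with earlier results of these data known, and the comparison of times averaged over surgeries was added by an earlier analysis after the data had been seen. Replicate numbers follow record order. Probe sequences and mm9 positions come from the scanner files; promoter sequences come from RefSeq (GRCm38.p6), where 3 of the 8 genes matched. Lox, Loxl1, Loxl2, Loxl3 and Plod2 had no entry used here. Alternatives were quantile normalization, another percentile, normexp background, the deposited table, other filters, slide as a block, each slide alone, only the arrays compared, array weights, other ways to combine probes, and each array left out. Histology was not analysed here.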

Additional observations from a re-analysis of the deposited data

Results flagged for a closer look

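Loxl3 in replicate 4 of sham 1 week stood apart from the other 3 arrays of its group. Its level was -1.16, against -1.87, -1.94 and -1.92, and the gap exceeded Dixon's 95% critical value for 4 samples. It was the only 1 of 32 groups of 4 tested over the 8 enzymes that did so, and chance alone gives such a gap in about 1 in 20 groups. The same array had the highest level of its group for Plod1 and Plod3, at -0.18 and 2.45. Without it, Loxl3 was 0.45 higher after DMM than after sham at 1 week, against 0.26 with it.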

How the results depend on the processing

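No paired analysis was possible because the replicate numbers follow record order and link no sham joint with a DMM joint. The lower means at 6 weeks, averaged over surgeries, kept their direction for 7 of 8 enzymes under every alternative run, and Loxl2 changed sign on slide 2 (0.12). The count of genes passing (247) was 408 with normexp, 645 with slide as a block, 5884 with array weights and 0 with no filter on dim probes, on slide 1 alone and on slide 2 alone; the members passing were 2 with normexp, 3 with slide as a block, 7 with array weights and 1 each with the deposited table, the filter at 8 arrays and the mean over a gene's probes. With single arrays left out the counts ran from 0 to 1502 genes and from 0 to 4 members. Array weights gave replicate 2 of sham 6 weeks a weight of 0.0757, and they passed 3305 genes with 4 members for sham, 963 with 3 for DMM, 1 gene for DMM at 6 weeks and 2 for the difference of DMM effects. Single arrays left out gave 0 to 1 gene for sham over time, 0 to 27 for DMM over time and 0 to 1 for DMM at 6 weeks.

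Members' median for DMM over time was -1.29 on slide 1 and -0.42 on slide 2, and for the difference of DMM effects -0.69 on slide 1. Pairs of members passing the correlation test (18) were 10 on slide 1, 7 on slide 2, 10 with group means subtracted and 24 without replicate 2 of sham 6 weeks. Loxl2 over time changed sign after sham with array weights (-0.081) and the mean over probes (-0.14), from -0.10 to 0.17 with arrays left out, and after DMM on slide 2 (0.10).

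DMM against sham at 6 weeks had no stable sign. Loxl4 was 0.0086 with quantile normalization, 0.0077 with normexp, 0.36 with array weights and 0.62 on slide 2. Plod3 was -0.000185 with quantile normalization, -0.0882 with the deposited table, -0.18 with array weights, -0.11 with the mean over probes and -0.22 on slide 2. Plod2 was -0.00277 with the other percentile, -0.0721 with the deposited table, -0.0787 with the mean over probes and -1.003 on slide 1. Slide 1 also gave -0.60 for Lox, -0.22 for Loxl2 and -0.0108 for Loxl3. Loxl2 was -0.0225 with the deposited table, Loxl1 -0.12 with array weights and Plod1 -0.073 with the mean over probes. Leaving out single arrays gave -0.0396 to 0.56 for Lox, -0.26 to 0.36 for Loxl1, -0.0559 to 0.24 for Loxl2, -0.11 to 0.32 for Loxl3, -0.29 to 0.18 for Loxl4, -0.0247 to 0.28 for Plod1, -0.30 to 0.35 for Plod2 and -0.20 to 0.12 for Plod3. At 1 week it gave -0.23 to 0.37 for Loxl1 and -0.0143 to 0.21 for Plod3, which was -0.0816 on slide 2.

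The difference of DMM effects changed sign on slide 2 for Lox (0.43), Loxl1 (-0.0021), Loxl3 (0.20), Loxl4 (0.0704) and Plod2 (0.70), with array weights for Lox (0.15), Loxl1 (-0.23) and Plod2 (0.41), and with the deposited table for Loxl1 (-0.0614). Single arrays left out gave -0.57 to 0.0315 for Lox, -0.32 to 0.38 for Loxl1, -0.37 to 0.0584 for Loxl3, -0.24 to 0.0659 for Plod1, -0.63 to 0.0164 for Plod2 and -0.28 to 0.0436 for Plod3. The cause of these changes was not tested.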
